A study of Homo sapiens with 2 samples.

Results

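Promoter contacts of 10 erythroid transcription factor genes (TAL1, GATA1, GATA2, LMO2, NFE2, KLF1, ZFPM1, LYL1, RUNX1 and GFI1B) were examined, out of 20037 protein-coding genes. The data are promoter-capture Hi-C from K562, an established human chronic myelogenous leukaemia line with erythroid features that carries the BCR-ABL1 fusion. In this assay crosslinked chromatin is cut with HindIII and ligated, and probes pull out the ligation products that hold a promoter fragment, the bait. There was 1 library of cells kept for 24 h in 100 nM ponatinib, which blocks ABL kinases including BCR-ABL1, and 1 library of cells kept for 24 h in the vehicle DMSO. Each gene was represented by the listed bait fragments that hold either of its ends in hg38, and an interaction is an unordered pair of fragments in a deposited list. Of the 10 genes, 7 had such a bait fragment. GATA2, NFE2 and RUNX1 had no listed bait fragment. Whether their promoters were captured is unknown here, because a captured bait without a listed interaction would not appear in the lists.

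Red cell genes are switched on by a small set of DNA-binding proteins that work as complexes. TAL1 or its relative LYL1 pairs with an E protein on E-box motifs, LMO2 and LDB1 bridge it to GATA1 or GATA2 on GATA motifs, and ZFPM1 (FOG1) is a cofactor of GATA1. KLF1 binds CACCC motifs of globin and other erythroid promoters, NFE2 binds the globin control regions, RUNX1 acts in blood stem cells and platelet precursors, and GFI1B is a repressor needed for red cells and platelets. Several of these genes are known to be driven by enhancers many kilobases from their promoters, which is what a contact map can show.

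Interactions numbered 91305 in ponatinib and 84049 in DMSO, and they started from 15938 and 15835 baits. With 1 library per treatment no difference has a replicate check, no test of the treatment exists and none is given. The files hold no read counts, so depth is unknown. The score beside each interaction was given by the authors, has a lowest value of 5 and orders the interactions within 1 list. Intervals are exact 95% binomial (Clopper-Pearson) intervals that cover counting error only and treat neighbouring fragments as independent, which they are not. In a share of listings, a pair in both lists enters once for each list, so those listings are not independent either. K562 has a rearranged genome, and copy number was not measured here.

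Promoter sequences are shown for 5 starts, because their motifs are those of the factors encoded by the same genes. The 5 are all 4 member windows that held GATAA and the GATA1 window, so they do not stand for the member windows in general. Each sequence is the 250 bases before a RefSeq start in GRCh38.p14, read on the strand of the gene. Capitals mark the core of a GATA site, GATAA, where the opposite strand is included as its reverse complement. They also mark the core of a KLF site, CACCC, again with its reverse complement. The windows are TAL1 at chr1:47232336-47232585 (minus strand), KLF1 at chr19:12887202-12887451 (minus strand), LYL1 at chr19:13102859-13103108 (minus strand), GATA1 at chrX:48786340-48786589 (plus strand) and the second start of GFI1B at chr9:132978444-132978693 (plus strand).
TAL1: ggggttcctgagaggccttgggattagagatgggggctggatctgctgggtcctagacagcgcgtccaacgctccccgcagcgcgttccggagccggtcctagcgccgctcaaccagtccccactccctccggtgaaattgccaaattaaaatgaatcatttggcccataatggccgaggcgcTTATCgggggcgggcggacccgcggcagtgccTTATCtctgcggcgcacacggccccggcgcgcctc
KLF1: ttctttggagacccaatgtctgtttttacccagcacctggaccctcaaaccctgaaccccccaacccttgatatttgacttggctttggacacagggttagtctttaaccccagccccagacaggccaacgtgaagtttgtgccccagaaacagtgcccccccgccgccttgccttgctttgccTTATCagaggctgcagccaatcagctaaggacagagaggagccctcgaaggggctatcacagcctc
LYL1: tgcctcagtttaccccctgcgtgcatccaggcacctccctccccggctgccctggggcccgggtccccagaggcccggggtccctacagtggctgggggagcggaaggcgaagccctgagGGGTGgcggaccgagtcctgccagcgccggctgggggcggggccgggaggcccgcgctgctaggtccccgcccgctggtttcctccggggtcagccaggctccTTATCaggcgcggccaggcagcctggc
GATA1: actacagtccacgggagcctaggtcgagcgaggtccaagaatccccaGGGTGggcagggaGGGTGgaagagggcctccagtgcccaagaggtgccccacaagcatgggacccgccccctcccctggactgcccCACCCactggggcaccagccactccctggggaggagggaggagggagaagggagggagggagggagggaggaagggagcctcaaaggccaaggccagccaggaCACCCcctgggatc
GFI1B: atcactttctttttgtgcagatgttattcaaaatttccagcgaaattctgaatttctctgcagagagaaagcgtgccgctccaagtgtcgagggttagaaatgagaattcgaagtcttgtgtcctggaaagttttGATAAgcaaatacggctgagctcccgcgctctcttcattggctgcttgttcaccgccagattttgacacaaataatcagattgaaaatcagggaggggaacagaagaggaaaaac
The TAL1 window holds GATAA at 2 places, beginning 67 and 35 bases before the start. The KLF1 window holds it 66 bases before the start, the LYL1 window 27 bases before it and the GFI1B window 115 bases before it. GATA1 holds no GATAA in this window and CACCC at 4 places. The windows of the other TAL1 start and of the first GFI1B start, which are not shown, held no GATAA. Over the 11 windows of the 8 member genes in the promoter table, 4 held GATAA and 6 held CACCC on either strand. Among all 22199 windows of protein-coding genes, 16.8% held GATAA and 58.4% held CACCC. The E-box, CANNTG, was in 5 of the 11 windows and in 58.1% of all, and TGACTCA, the NFE2-type motif, was in 0 of the 11 and in 3.45% of all. A match of letters does not show that a factor binds there.

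The 7 genes with a bait fragment had 33 interactions in ponatinib and 18 in DMSO, of which 10 were in both lists. Of the 51 listings 64.7% were in ponatinib (50.1 to 77.6%), against 52.1% for the whole lists (51.8 to 52.3%). TAL1, GATA1, LMO2, LYL1 and GFI1B had more interactions in ponatinib, KLF1 and ZFPM1 had equal numbers, and 0 genes had fewer. KLF1 had fewer under other ways of counting, with 1 in ponatinib and 2 in DMSO on 1 chromosome, and 5 and 6 when a gene end could lie up to 1 kb from the bait. In the main count that is 5 of 7 with more, beside 48.0% of all 13721 genes with a bait fragment. LYL1 is among the 5 with 1 interaction against 0, and the baits of LYL1 and GFI1B also hold ends of other genes. At scores of at least 7, 2 members had more in ponatinib and 2 had fewer. The median log2 ratio, log2((ponatinib + 1)/(DMSO + 1)), was 0.74 over the 7 genes and 0.00 over all genes. A difference of at least 2-fold in this ratio was read only where both lists together gave a gene 5 or more listings. TAL1, GATA1, LMO2 and GFI1B reached that number, and GATA1 alone passed the fold. In the background 9.92% of 9787 genes had at least 2-fold more and 6.26% at least 2-fold fewer, 971 and 613 genes. In lists of equal length these counts were 722 and 827, and after scaling by list length they were 671 and 626.

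The excess in ponatinib was not seen at higher scores, where few interactions were left. At scores of at least 7 the member genes had 8 interactions in ponatinib and 8 in DMSO (50%, 24.7 to 75.3%). At scores of at least 10 they had 2 and 2 (50%, 6.76 to 93.2%). Both intervals also hold the 64.7% of the main count. Bait fragments that lie inside a member gene without holding its end gave a second view of TAL1, LMO2 and GFI1B. These had 35 interactions in ponatinib and 32 in DMSO, with 20 shared, so 52.2% of listings were in ponatinib (39.7 to 64.6%). The pair that joins the bait with the TAL1 start to the bait inside TAL1 is counted in both views. With both kinds of bait the numbers were 67 and 49, and the share in ponatinib was 57.8% (48.2 to 66.9%), and both this interval and that of the baits with a gene end hold the 52.1% of the whole lists.

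**Figure D1:**
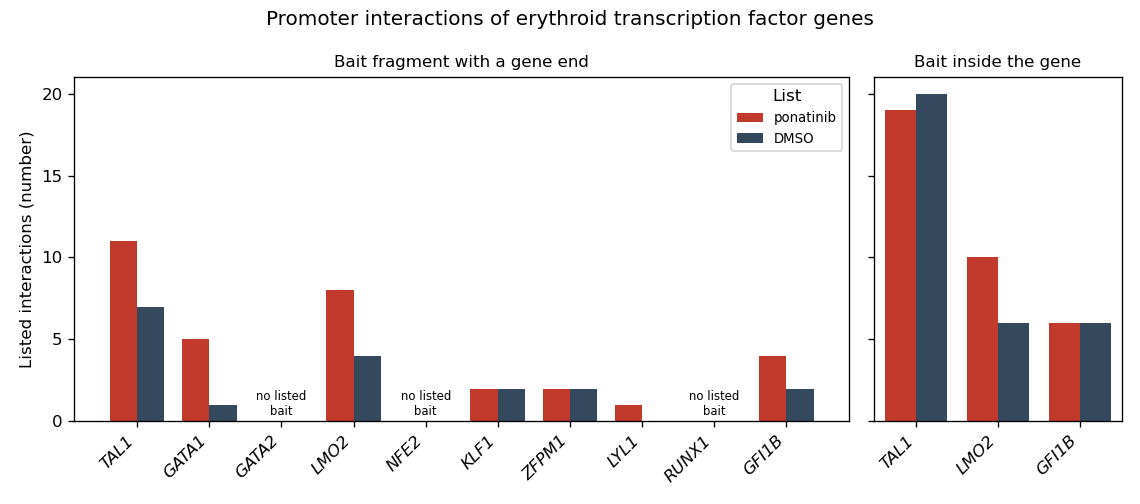
Number of listed interactions (y axis) of each member gene in the ponatinib list (red, left bar) and the DMSO list (dark, right bar), 1 library each. The left panel counts bait fragments with a gene end, where TAL1 had 11 and 7, and the right panel bait fragments inside the gene, where TAL1 had 19 and 20.

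Partners lay close to the member genes as a set, mostly at TAL1 and LMO2. Among pairs on 1 chromosome, 23 of 31 in ponatinib (74.2%, 55.4 to 88.1%) and 11 of 16 in DMSO (68.8%, 41.3 to 89.0%) were under 100 kb, against 18.9% and 19.8% of the whole lists. Without TAL1 the shares were 65.0% (40.8 to 84.6%) and 55.6% (21.2 to 86.3%). TAL1 and LMO2 gave 10 and 6 of the 23 near pairs in ponatinib, and 6 and 3 of the 11 in DMSO. GFI1B gave 0 in both lists. The median distance was 56.4 kb in ponatinib and 71.1 kb in DMSO, beside 242 and 234 kb in the whole lists. Pairs with bait fragments at both ends made up 13 of 33 in ponatinib (39.4%, 22.9 to 57.9%) and 9 of 18 in DMSO (50%, 26.0 to 74.0%). They made up 35.4% and 38.2% for the partner and cofactor genes described further on, 23.3% and 23.8% for all protein-coding genes, and 18.7% and 19.1% in the whole lists. The identical pair was also in the ponatinib list for 55.6% of the DMSO interactions of the member genes (30.8 to 78.5%), beside 44.3% of all DMSO interactions. In the other direction it was 30.3% of the ponatinib interactions of the member genes, beside 40.7% of all. When both ends could lie up to 5 kb apart, 12 of the 18 DMSO interactions had a match (66.7%, 41.0 to 86.7%), beside 67.5% of all.

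TAL1, the basic helix-loop-helix factor that nucleates the complex, had the most interactions of the 7 genes with a bait. Its bait fragment on chromosome 1 (47227864 to 47247670) holds both RefSeq starts of the gene and had 11 interactions in ponatinib and 7 in DMSO, with 6 shared. That is 61.1% in ponatinib (35.7 to 82.7%), and 75.1% of all genes with a bait had fewer listings. TAL1 is transcribed towards lower coordinates, and most partners lay downstream. The highest score joined the start to a second bait fragment inside TAL1 (47222276 to 47227314), 13.0 kb away, with 14.2 in ponatinib and 16.1 in DMSO. The fragment with the 3' end of TAL1 (47203441 to 47222275) scored 9.19 and 7.13.

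Beyond the 3' end the TAL1 contacts reached the neighbourhood of PDZK1IP1, a small membrane protein gene. An erythroid enhancer of TAL1 is known past that gene. The fragment 47176380 to 47179996, 59.6 kb from the start bait, scored 11.6 in ponatinib, above 88.5% of that list, and 7.07 in DMSO, above 60.8% of that list. It holds the ends of no protein-coding gene and lies over the non-coding genes CYP4A22-AS1 and LINC00853. The fragment with PDZK1IP1 itself (47181924 to 47192633) scored 6.78 in ponatinib and 5.4 in DMSO. Between them, the fragment 47180794 to 47181923 was listed in ponatinib only, with a score of 8.01. From the bait inside TAL1 it was also listed in ponatinib only, with 6.44. In the interval 40 to 60 kb downstream of the TAL1 start, both TAL1 baits together had 7 interactions in ponatinib and 5 in DMSO, and all 5 of the DMSO ones were shared. This interval includes the PDZK1IP1 fragment, so the numbers are not those of the enhancer alone. Fragments of the interval were thus met from TAL1 in both libraries, but the fragment 47180794 to 47181923 in ponatinib only.

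The bait inside TAL1 had 19 interactions in ponatinib and 20 in DMSO, with 12 shared, so the excess at the start fragment was not seen there. It listed an unbroken run of 7 adjacent fragments from 47176380 to 47203440, 27.1 kb long, of which 6 were in ponatinib and 6 in DMSO. On the other side it listed 6 adjacent fragments from 47248346 to 47294354, nearly all inside STIL, the centriole gene next to TAL1, with 5 in ponatinib and 4 in DMSO. The strongest of these (47262836 to 47278209) scored 12.6 in ponatinib and 8.6 in DMSO. Further out, the promoter fragment of CMPK1, a pyrimidine nucleotide kinase gene (47326623 to 47334697), scored 9.02 and 7.02 from the inside bait. From the start bait the same CMPK1 fragment scored 8.01 in ponatinib and was not listed in DMSO, where the next fragment (47334775 to 47338837) scored 5.02. The start bait also met the fragment of the non-coding gene FOXD2-AS1, 192 kb away, with 5.71 and 5.76. Contacts over 500 kb from the inside bait were 1 in ponatinib, in ATPAF1, and 3 in DMSO, of which 2 were in DMBX1.

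The gene whose partner fragments were most like those of TAL1 was CMPK1. Over both lists 8 of the 12 partner fragments of the TAL1 start bait were among the 22 partner fragments of CMPK1, a Jaccard index (fragments in common over fragments in either) of 0.308. PDZK1IP1 came next with 5 in common, of its 27, and an index of 0.147. These 3 genes are neighbours, and neighbours reach the same fragments at short range.

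**Figure D2:**
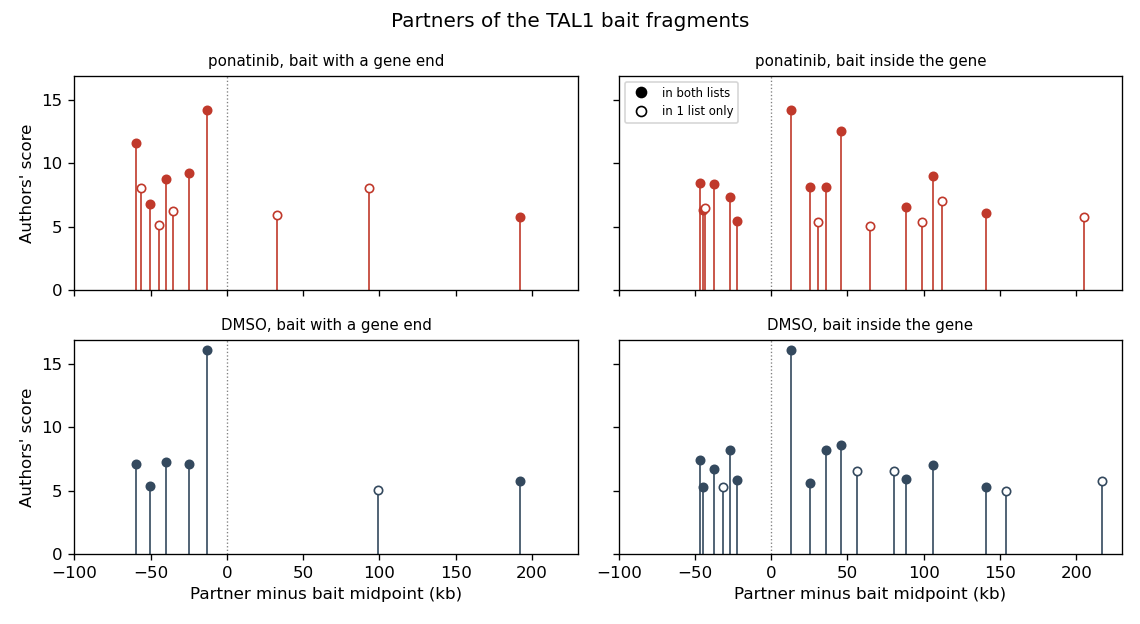
Authors' score (y axis) of each partner of the TAL1 bait fragments against the distance of fragment midpoints in kb (x axis, negative values are downstream of TAL1), ponatinib above and DMSO below, start bait left and inside bait right. Filled points are pairs in both lists and open points are in 1 list only; partners beyond the axis range are not drawn. The cluster 35 to 60 kb downstream of the start bait has 6 points in ponatinib and 3 in DMSO.

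LYL1, the TAL1 relative on chromosome 19, had 1 interaction in ponatinib and 0 in DMSO. Its bait fragment (13083587 to 13129045) is 45.5 kb long and also holds ends of NFIX, TRMT1 and NACC1, so the contact cannot be given to LYL1 alone. The partner was a fragment inside NFIX (13036992 to 13038478), 68.6 kb away, with a score of 5.27. KLF1 lies 212 kb from LYL1 on the same chromosome, and no contact between the bait fragments of these genes was listed.

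LMO2, the LIM-domain bridge of the complex, had 8 interactions in ponatinib and 4 in DMSO at its end fragment on chromosome 11 (33891657 to 33895755), with 2 shared. That is 66.7% in ponatinib (34.9 to 90.1%). A second bait inside the gene (33878354 to 33884889) had 10 and 6, with 5 shared. LMO2 is transcribed from its higher-coordinate end, and its known distal enhancers lie upstream of that end. Nearly all partners of both baits lay on that side, and none of those within 100 kb held an end of a protein-coding gene.

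The strongest LMO2 contact in both lists was the 1.3 kb fragment 33970214 to 33971529. From the inside bait, 89.2 kb away, it scored 13.4 in ponatinib, above 91.5% of that list, and 12.4 in DMSO, above 91.2% of that list. From the end bait, 77.2 kb away, it scored 6.8 in ponatinib and 8.98 in DMSO. The inside bait listed 5 adjacent fragments from 33958772 to 33979381, with 5 in ponatinib and 4 in DMSO. In the interval 60 to 80 kb upstream of the LMO2 start both baits together had 9 interactions in ponatinib and 6 in DMSO, with 5 shared. The interval was thus met from LMO2 in both libraries. A nearer group, at 33925072 to 33949608, scored from 5.03 to 5.57 in ponatinib and from 5.09 to 5.47 in DMSO over both baits, all close to the lowest listed score.

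The few other LMO2 contacts were each in 1 list. In ponatinib the end bait met the fragment of QSER1, 1000 kb away, with 6.27, and the inside bait met CSTF3, a cleavage factor gene, 723 kb away, with 6.52. The inside bait also met a fragment inside APIP, 1033 kb away, in ponatinib, with 5.68. DMSO listed no LMO2 contact beyond 500 kb on the same chromosome. The end bait had a partner on chromosome 6 in each list, at different places, with 6.77 in ponatinib and 5.14 in DMSO. The fragment with CAPRIN1, the next gene upstream, met a fragment inside LMO2 in DMSO only, with 5.45.

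**Figure D3:**
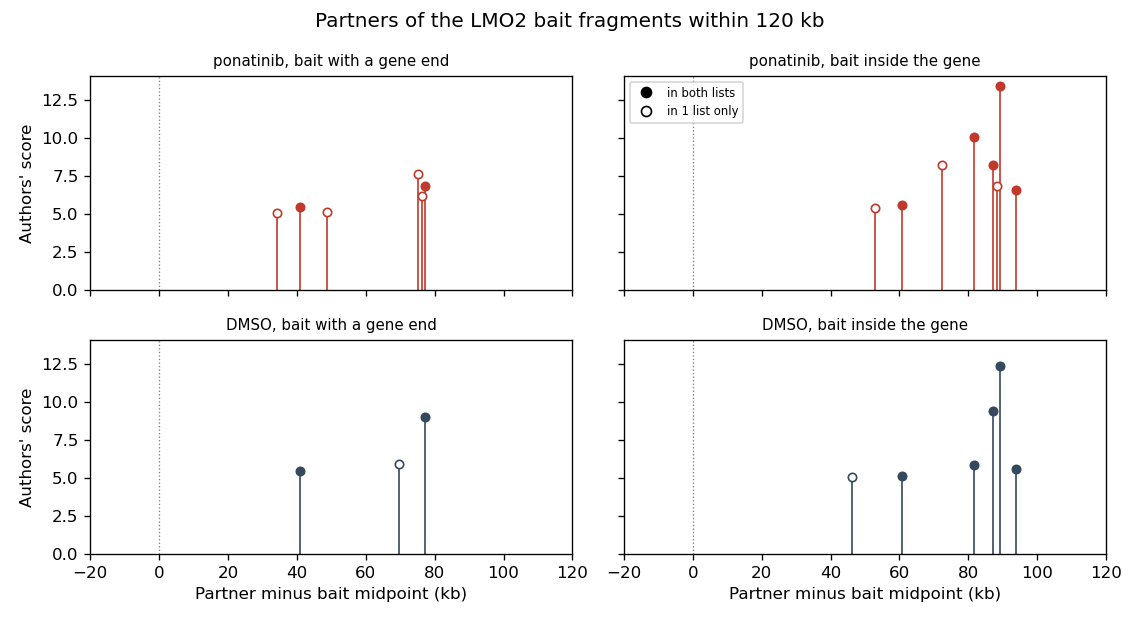
Authors' score (y axis) of partners of the LMO2 bait fragments against the distance of fragment midpoints in kb (x axis, positive values are upstream of LMO2), ponatinib above and DMSO below, end bait left and inside bait right. In all panels the highest or the second highest point lies between 77.2 and 89.2 kb (partners beyond the axis range are not drawn), and the tallest is 13.4 in ponatinib and 12.4 in DMSO.

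GATA1, the zinc finger factor that directs red cell maturation, had 5 interactions in ponatinib and 1 in DMSO, with 0 shared. That is 83.3% in ponatinib (35.9 to 99.6%), a log2 ratio of 1.58 from 6 listings. Its bait fragment on chromosome X (48779942 to 48791440) holds the start, and the proximal upstream region of the gene lies on the same fragment, so contacts with it cannot be resolved. In ponatinib the bait met 4 adjacent fragments from 48792189 to 48801577, at 6.79 to 13.8 kb. The first 3 lie over the rest of GATA1 and scored 5.59, 6.73 and 6.48. The last holds an end of HDAC6, the tubulin deacetylase gene next to GATA1, and scored 5.01, above 0.278% of the list. The fifth partner was the GRIPAP1 fragment, 212 kb away, with 5.53.

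In DMSO the only GATA1 partner was the fragment of TFE3, a helix-loop-helix factor gene 256 kb away, with 10.8, above 87.5% of that list. The identical pair was not listed in ponatinib, but a ponatinib interaction lay within 10 kb of it at both ends. That interaction did not include the GATA1 bait fragment itself, and none lay within 5 kb. No partner of GATA1 in ponatinib reached a score of 7. The order is therefore turned at scores of at least 7 and at least 10, with 0 in ponatinib and 1 in DMSO. The GATA1 excess thus rests on 5 low-scoring contacts, 4 of them within 13.8 kb of the bait.

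GATA2, the progenitor counterpart of GATA1, could be seen only from other baits. The fragment with its 3' end and its downstream start (128474028 to 128489997 on chromosome 3) met a bait fragment inside RUVBL1, 339 kb away, in DMSO only, with 5.63. The fragment with its upstream start was in neither list. In the upstream interval 128593201 to 128613201, towards RPN1, where a distal GATA2 enhancer is known, 0 fragments were listed in either library.

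ZFPM1, the cofactor of GATA1, had 2 interactions in ponatinib and 2 in DMSO, with 1 shared. Its bait fragment on chromosome 16 (88448236 to 88457066) met a fragment near the far end of the gene (88524668 to 88525585), 72.5 kb away, with 6.03 in ponatinib and 8.38 in DMSO. In ponatinib it met SNAI3, a zinc finger repressor gene 232 kb away, with 5.52. In DMSO it met ZC3H18, an RNA-processing gene 110 kb away, with 7.35. The same inner fragment of ZFPM1 was met by the PIEZO1 bait, 260 kb away, with 10.1 in ponatinib and 7.72 in DMSO. PIEZO1 encodes a mechanically gated channel that is mutated in a hereditary anaemia of dehydrated red cells. The PIEZO1 bait also met the fragment with the 3' end of ZFPM1 in ponatinib, with 7.12. PIEZO1 was the gene most like ZFPM1 in partners, with all 3 partner fragments of ZFPM1 among its 13 and a Jaccard index of 0.231.

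KLF1, the CACCC-binding factor of late red cell genes, had 2 interactions in ponatinib and 2 in DMSO, with 1 shared. Its bait fragment on chromosome 19 (12884419 to 12897187) holds the whole gene and an end of GCDH, a mitochondrial dehydrogenase gene. The contacts of this bait thus cannot be given to KLF1 alone. The shared partner was the fragment of SYCE2, a meiosis gene 27.9 kb away, with 5.54 in ponatinib and 6.09 in DMSO. In ponatinib a fragment of chromosome 5 was also listed, with 6.66. In DMSO the fragment with ends of MAN2B1, WDR83, WDR83OS and DHPS, 218 kb away, was listed with 5.42. No KLF1 contact scored 7 or more.

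NFE2, the leucine zipper factor of the globin control regions, had no listed bait fragment of its own, but 4 fragments over the gene were met by 4 neighbouring baits. There were 9 such interactions in ponatinib and 8 in DMSO, with 6 shared. The bait inside COPZ1, a coatomer gene, met 3 adjacent NFE2 fragments, 40 to 43.1 kb away, in both libraries. Their scores were 8.53, 6.96 and 8.18 in ponatinib and 7.12, 7.7 and 8.28 in DMSO. All 3 fragments were thus met by this bait in both libraries.

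The bait with ends of GPR84, a fatty acid receptor gene, and ZNF385A met the same 3 NFE2 fragments in ponatinib, with 5.24, 9.23 and 8.23, and 2 of them in DMSO, with 8.23 and 5.04. A further ZNF385A bait, 96.5 kb away, met 1 of them in ponatinib only, with 6.78. The nearest bait (54312676 to 54323519), which holds the small RNA pseudogene RNU6-950P and no protein-coding gene, met the same 3 fragments in DMSO with 5.26, 5.39 and 5.68. In ponatinib it met 1 of these, with 9.44. It also met the fragment with the NFE2 higher-coordinate end (54296101 to 54306982) in ponatinib, with 6.44.

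**Figure D4:**
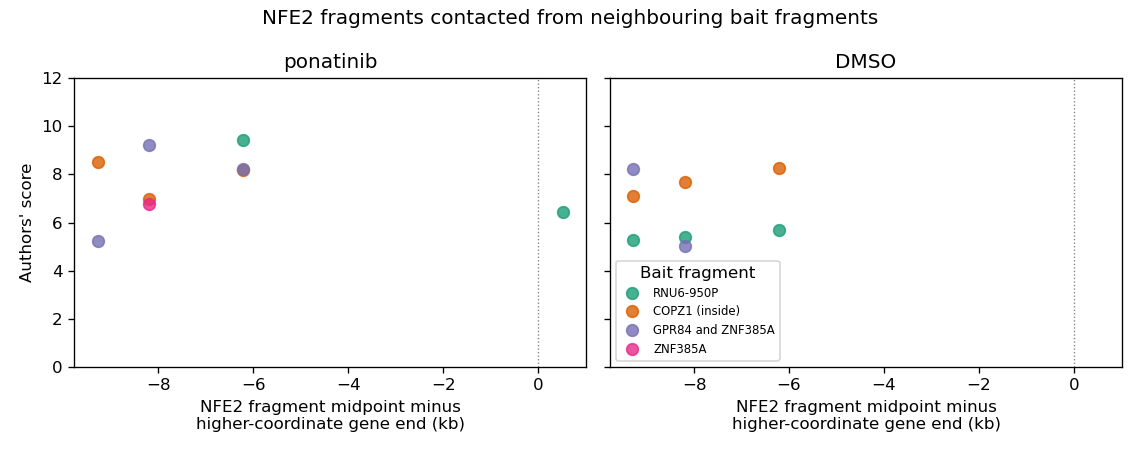
Authors' score (y axis) of contacts between NFE2 fragments and neighbouring bait fragments (colours, named by the gene they hold or lie in), against the position of the NFE2 fragment in kb from the higher-coordinate gene end (x axis), ponatinib left and DMSO right. The COPZ1 bait has 3 points in each panel, between 6.96 and 8.53 in ponatinib and between 7.12 and 8.28 in DMSO.

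RUNX1, the runt-domain factor of blood stem cells, likewise had no listed bait. Fragments over it were met 2 times in ponatinib and 2 times in DMSO, with 0 shared. The fragment with its 3' end (34787178 to 34788600 on chromosome 21) met a bait with MIR802, 931 kb away, in ponatinib, with 7.58. In DMSO it met a bait with LOC101928269, 1198 kb away, with 6.74, and that bait also met a fragment inside RUNX1 (34795212 to 34795797), with 5.71. The stretch between the distal and the proximal RUNX1 promoter, which holds known blood stem cell enhancers, had 1 listed fragment. It met a bait of MMP27 on chromosome 11 in ponatinib, with 5.01.

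GFI1B, the repressor gene, stood apart by distance. Its bait fragment on chromosome 9 (132939494 to 132947373), which also holds an end of TSC1, had 4 interactions in ponatinib and 2 in DMSO, with 0 shared. That is 66.7% in ponatinib (22.3 to 95.7%). Because of TSC1 these contacts cannot be given to GFI1B alone. The bait holds the first GFI1B start, and the fragment with the second start was not a listed bait. In ponatinib all 4 partners lay on the lower-coordinate side at 271 to 539 kb, in or at GTF3C4, BARHL1, CFAP77 and TTF1. Their scores were 5.11, 6.81, 9.62 and 6.99. In DMSO the partners were a fragment of STKLD1 and SURF4 on the other side, 433 kb away, with 5.2, and a fragment inside RUVBL1 on chromosome 3, with 6.71. None of these pairs was in both lists, beside 44.3% of all DMSO interactions that were also in the ponatinib list.

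The bait inside GFI1B (132959745 to 132970751), which holds neither start, gave a different picture of sharing. It had 6 interactions in ponatinib and 6 in DMSO, with 3 shared. The shared partners were the TTF1 fragment (132401641 to 132407510), the CFAP77 end fragment (132408281 to 132412146) and a fragment inside CFAP77 (132421537 to 132435612), at 537 to 561 kb. Their scores were 8.12, 6.81 and 6.77 in ponatinib and 7.99, 5.83 and 10.1 in DMSO. TTF1 encodes a terminator of ribosomal RNA transcription and CFAP77 a cilium protein. The TTF1 and CFAP77 fragments that the TSC1-side bait met in ponatinib only were thus met by the inside bait in both libraries. In ponatinib the inside bait also met 3 further fragments inside CFAP77, at 552, 549 and 527 kb, with 10.1, 5.73 and 5.71. In DMSO it also met another fragment inside CFAP77, at 450 kb, with 5.8, and 2 fragments inside DDX31, a helicase gene, at 310 and 300 kb, with 8.48 and 7.14.

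Fragments over GFI1B were met from other baits 2 times in ponatinib and 7 times in DMSO, with 0 shared. In DMSO 3 of these were at the fragment with the 3' end (132980203 to 132994756), which overlaps the interval 10 to 20 kb past the second start, where GFI1B enhancers are known. It was met by the baits of DDX31 and GTF3C4 with 7.22, of RALGDS and GBGT1 with 6.7 and of SURF6 and MED22 with 5.85, and 0 times in ponatinib. The fragment with the second start met the bait of GTF3C5, 53.6 kb away, in ponatinib only, with 5.54. GFI1B begins 1.71 Mb beyond NUP214, on the chromosome arm that takes part in the BCR-ABL1 rearrangement. None of its listed partners lay on chromosome 22.

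**Figure D5:**
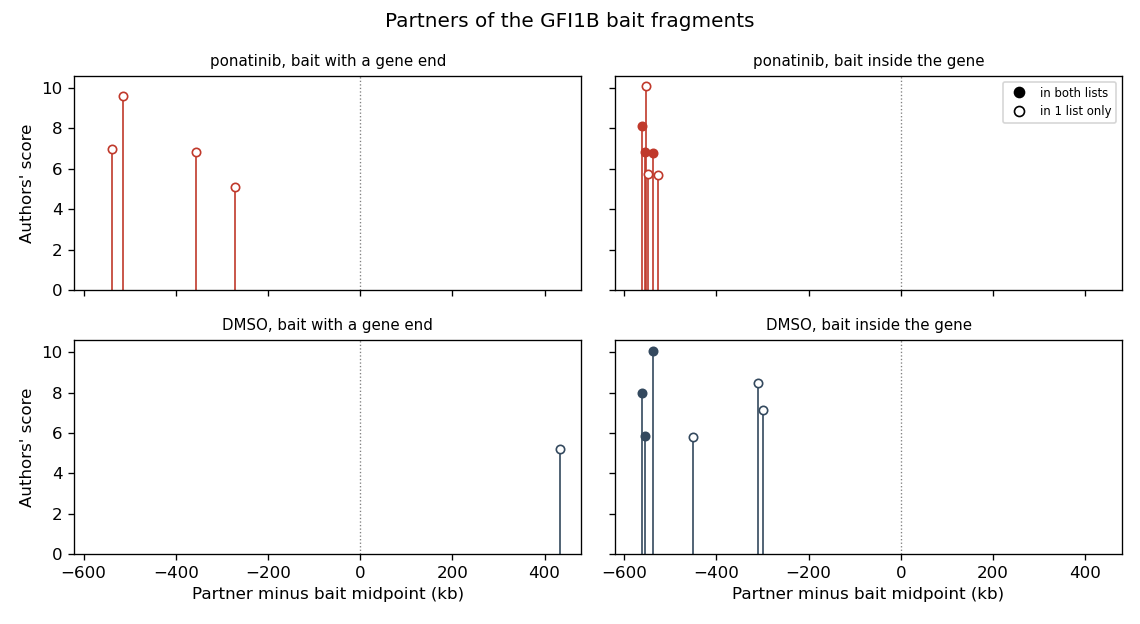
Authors' score (y axis) of the partners of the GFI1B bait fragments on chromosome 9 against the distance of fragment midpoints in kb (x axis), ponatinib above and DMSO below, the bait with the gene's first end left and the bait inside the gene right. The inside bait has 3 filled points (pairs in both lists) in each library, all between 537 and 561 kb on the lower-coordinate side.

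Genes whose products work with these factors were counted in the same way. Of 43 partner and cofactor genes, 31 had a bait fragment, with 189 interactions in ponatinib and 199 in DMSO and 72 shared. That is 48.7% in ponatinib (43.6 to 53.8%), and 13 genes had more and 13 fewer. The median log2 ratio was 0.00, the same as over all genes. The largest gains in number were at LDB1, the bridge protein that binds LMO2, with 10 and 5, at BCL11A, the repressor of fetal globin, with 7 and 2, and at IKZF1 with 13 and 9. The largest losses were at MYB, the progenitor factor gene, with 14 and 21, at SSBP3, an LDB1 partner, with 13 and 20, and at NFE2L1, a relative of NFE2, which was listed at 0 in ponatinib and had 7 in DMSO. Of the 22 genes with 5 or more listings, BCL11A had at least 2-fold more and NFE2L1, MAFG and TCF3 at least 2-fold fewer, beside 9.92% and 6.26% of all such genes.

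Transcription factor genes of other cell types served as a contrast. Of 26 such genes 21 had a bait fragment, with 128 interactions in ponatinib and 114 in DMSO, or 52.9% in ponatinib (46.4 to 59.3%). In this list 10 genes had more and 9 fewer. The largest gains were at EBF1 with 17 and 11, SOX2 with 14 and 9, and then MYOD1 with 7 and 3 and PAX5 with 12 and 8, which tied. The largest losses were at MYOG with 3 and 7, CEBPE with 9 and 12, and then BCL11B with 1 and 3 and IRF8 with 0 and 2, which tied. The intervals of both lists and of the member genes overlap.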

How the data were processed

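Contacts of captured promoters in K562 were measured in 1 ponatinib and 1 DMSO library. The authors deposited 1 interaction list per library, with a bait fragment, a partner fragment and a score per line. For this score, the definition, caller, aligner and threshold were not given in the sources used here. Coordinates are those of hg38, the build named in the submitters' processing notes. HindIII was used, per the labels' protocols.

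Lines were read as unordered fragment pairs (the ponatinib list had 91306 lines and 91305 pairs). Genes and promoter windows came from RefSeq tables of GRCh38.p14; LMO2 and NFE2 had no promoter entry. Distance is between fragment midpoints, and a shared interaction is the identical pair. Numbers per gene were compared with a pseudocount of 1. No test was run, since each treatment has 1 library. The depth is unknown. Known enhancer intervals were set by round distances from gene starts.

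The members and lists were chosen with earlier results of these data known. Named genes are the members, genes at shared partners and at the 3 highest scoring partners per member and list, up to 2 genes with the most partner fragments in common (at least 3), and up to 3 gains and 3 losses per list; other partners of the members were named after their values were seen, and 1 gene of the other-lineage list is not reported here by name. Alternatives were score minimums of 7 and 10, lists of equal length, pairs on 1 chromosome, gene ends within 1 kb of a bait, any bait over the gene, the start side only, without TAL1, matches within 5 or 10 kb, a pseudocount of 0.5, scaling by list length and a minimum of 10 interactions. The counting code was checked on simulated lists with known numbers. Python 3.11.15, pandas 2.3.3, numpy 2.4.6, scipy 1.17.1 and matplotlib 3.10.9 were used.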

Additional observations from a re-analysis of the deposited data

How the results depend on the processing

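At scores of at least 7 the member genes had 12 interactions over both lists instead of 41, with 4 shared, 1 beyond 500 kb and 6 between bait fragments; 50% of listings were in ponatinib instead of 64.7%, and 2 members had more there instead of 5, while GATA1 (0 in ponatinib and 1 in DMSO) and ZFPM1 (0 and 2) had fewer. At scores of at least 10 there were 3 interactions, with 1 shared, 0 beyond 500 kb and 3 between bait fragments, 50% in ponatinib, 1 member with more and 1, GATA1, with fewer. The enhancer intervals then held 10 and 3 interactions instead of 17, genes past the 2-fold limit were 777 and 276 instead of 1584, and at 10 the other-lineage list had 64.1% in ponatinib instead of 52.9%. Higher minimums leave fewer interactions by construction. With any bait over the gene there were 87 interactions, 29 shared, 15 beyond 500 kb and 28 between bait fragments, since more baits are counted. Without TAL1 4 shared interactions were left, and with a minimum of 10 interactions 710 genes passed the 2-fold limit. For GATA1 the order was reversed at scores of at least 7 and of at least 10, each with 1 interaction, in DMSO. On 1 chromosome only, 3 members instead of 1 had at least 2-fold more. KLF1 had 11 listings instead of 4 with gene ends within 1 kb of a bait. Over the summary results 55 alternative values stayed near the main one and 23 moved, all of which are given here. No paired analysis was possible because each treatment has 1 library. Few interactions per gene and the unknown depth limit what can be read from any single gene.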

Other observations

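Fragments 40 to 60 kb downstream of the TAL1 start include listed bait fragments, whose own contacts are counted here. Outside the TAL1 baits they had 46 interactions in ponatinib and 38 in DMSO, with 28 shared. Fragments 60 to 80 kb upstream of the LMO2 start had 1 interaction outside the LMO2 baits in ponatinib and 0 in DMSO. Since baits lie in the first interval, the numbers of both intervals cannot be compared.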
